A study of Mus musculus with 3647 samples.

Results

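Among GABAergic nuclei of the mouse thalamic reticular nucleus (TRN), 24.7% contained no transcript of Spp1 or of Ecel1, the genes that mark the 2 ends of the reticular population. These nuclei with neither transcript numbered 110 on plates sorted with a neuronal marker and 68 on unselected plates. They were chosen by their measured values: Snap25, Gad1 and Gad2 above 0, Gad1 and Gad2 summing to at least 100 TPM (transcript abundance scaled to a fixed total per nucleus) and to more than Slc17a6, Pvalb or Six3 above 0, and Spp1 and Ecel1 both at 0. The same rule put 37.7% of reticular nuclei in a class with Spp1 only, 32.3% in a class with Ecel1 only and 5.27%, 38 nuclei, in a class with both. The series lists 3647 samples, each 1 nucleus or cell, and expression values were read for 1447 nuclei of TRN plates. Of these 1447 nuclei, 49.8% passed the rule apart from Spp1 and Ecel1, and 12.3% were nuclei with neither transcript. The labels used here give no genotype, treatment, age, sex or animal for them. Nuclei were prepared by sucrose gradient centrifugation and sorted by DNA dye alone (unselected, 13 plate names) or by DNA dye and an antibody to NeuN, a protein of neuronal nuclei (8 plates), and were sequenced with a modified Smart-seq2 protocol. Since no animal is named, each sort counts as 1 sample, no test between classes was possible, and the spread over plates is given in its place.

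The TRN is a shell of inhibitory neurons around the dorsal thalamus. Its neurons receive axon collaterals from thalamus and cortex, inhibit thalamic relay cells, and fire bursts carried by T-type calcium channels. Spp1 encodes osteopontin, a secreted phosphoprotein, and Ecel1 encodes a membrane metalloprotease of neurons.

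The genes of the rule are given first, as a description. Pvalb, a calcium buffer, was found in 87.1% of nuclei with neither transcript and Six3, a forebrain homeobox factor, in 92.1%. Both were found together in 79.2% (95% exact binomial interval 72.5 to 84.9%), against 93.8% of Spp1-only and 77.3% of Ecel1-only nuclei. The rule asks for these genes, so their shares do not check the label. Slc32a1, the vesicular GABA transporter, which the rule did not read, was found in 62.4% of the class, 76.1% of Spp1-only and 68.2% of Ecel1-only nuclei. In the class, 23 nuclei passed on Six3 alone and 14 on Pvalb alone. Median Gad1, the main GABA-synthesising enzyme, was 1680 TPM in nuclei with neither transcript, 3160 TPM in Spp1-only and 1886 TPM in Ecel1-only nuclei.

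Few nuclei lay near the limit on Gad1 and Gad2. The 3 lowest sums of Gad1 and Gad2 among them were 149.7, 161.8 and 181.1 TPM, their median sum was 2166 TPM, and the highest sum among the 3 nuclei kept out by this limit alone was 60.5 TPM. Nearer to a limit, 15 nuclei of the class had Six3 above 0 but under 10 TPM (lowest 1.33 TPM), and 4 had such values of Gad2. On the other side of the zero, the lowest Spp1 value that put a nucleus in the Spp1-only class was 11.6 TPM and the lowest Ecel1 value in the Ecel1-only class was 2.17 TPM. Positive nuclei lay far above: Spp1 had a median of 1655 TPM and a 5th percentile of 147.4 TPM in its class. Ecel1 was a weaker transcript, with a median of 437.6 TPM, a 5th percentile of 15.5 TPM and 8 nuclei under 10 TPM. A further 91 nuclei met every condition but Pvalb or Six3 and were left out, and 49 of those had neither Spp1 nor Ecel1. In cells that should lack both genes, Spp1 was found in 2.49% of TRN nuclei with more Slc17a6 than Gad1 and Gad2 (median 4909 detected genes) and Ecel1 in 0 of them, which allows a share of up to 1.82%. Depth in reads is unknown for TPM, so the number of genes above 0 stands in for it, and intervals on shares cover counting error only.

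Nuclei with neither transcript were present under all 21 plate names. The series text counts 9 unselected TRN plates where the column names have 13 starts, among them 1 test plate and 4 with a prefix of their own, so a plate name need not be a separate plate and spreads over plates are spreads over these names. The share of nuclei with neither transcript was 21.8% on NeuN plates (110 nuclei, 18.3 to 25.6%) and 31.5% on unselected plates (68 nuclei, 25.3 to 38.1%). Over the 8 NeuN plates it ran from 10.6% to 33.9% with a median of 21.2%, and over the unselected plates from 8.33% to 53.9% with a median of 33.3%, so the ranges overlapped. The unselected plates held 4 to 26 reticular nuclei each, and 3 of them held no Spp1-only nucleus. Among NeuN plates the share moved with plate depth. The 4 plates named NP1 to NP4 had 22.4 to 33.9% and the 4 named TRNpA to TRNpD had 10.6 to 20%, with no overlap. The other reticular nuclei of the first 4 plates had medians of 4354 to 4917 detected genes per plate and those of the last 4 had 5389 to 5712. Spearman's rho between share and this plate median was -0.90 over the 8 NeuN plates and -0.26 over the 13 unselected ones, where the counts are small. Depth and the 2 sets of names cannot be told apart here. Nuclei with both transcripts went the other way in the sorts: all 38 were on NeuN plates, and 0 unselected nuclei had both (up to 1.69%).

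**Figure D1:**
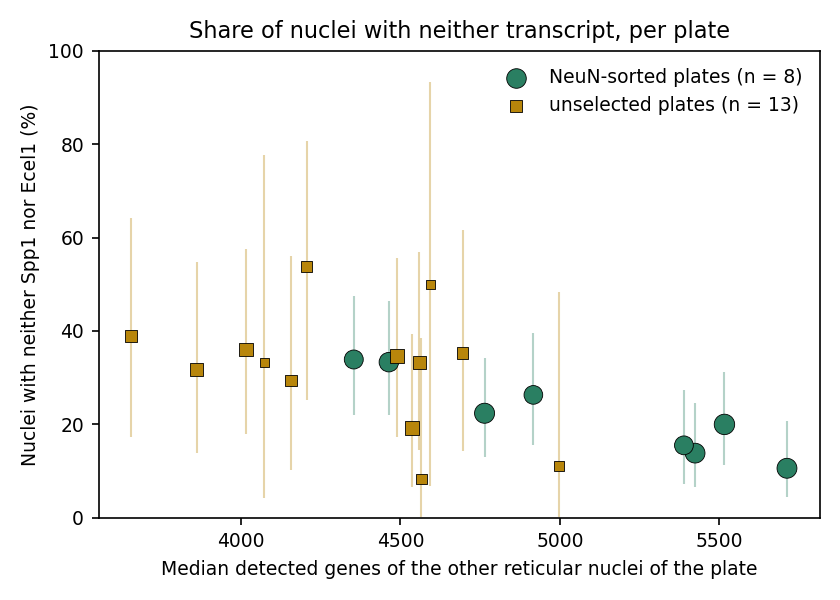
Share of reticular nuclei with neither Spp1 nor Ecel1 (y axis, %) on each plate against the median number of detected genes of the other reticular nuclei of that plate (x axis). Circles are NeuN plates, squares unselected plates, symbol area grows with the number of nuclei and bars are exact 95% binomial intervals; NeuN plates run from 33.9% on the shallowest to 10.6% on the deepest.

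Nuclei with neither transcript had fewer detected genes than Spp1-only nuclei, and the comparison with Ecel1-only nuclei depended on the plate. The rule asks for 2 genes not to be found, so detection itself is not independent of it. The median was 4398 detected genes (quartiles 3652 and 5030) with neither, 5264 with Spp1 only, 4636 with Ecel1 only and 5393 with both. Against Spp1-only nuclei the median was lower on 14 of 15 plates with at least 5 nuclei of each class, with a median plate difference of -443 genes (SD 432.9). Against Ecel1-only nuclei the medians over all nuclei differed by -238.5 genes, but the class was lower on only 8 of 17 plates and the mean plate difference was 51.6 genes (SD 443.7), within the spread over plates.

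When the reticular nuclei were cut into tertiles by detected genes, those with neither transcript were 37.2% of the shallowest tertile (31.1 to 43.6%), 23.4% of the middle one (18.2 to 29.3%) and 13.3% of the deepest (9.30 to 18.3%). In the deepest 10%, all with 6057 or more detected genes, 5 of 73 nuclei had neither (6.85%, 2.26 to 15.3%). On NeuN plates the tertiles gave 33.1, 21.4 and 10.7%. On unselected plates they gave 44.4, 19.4 and 30.6%, with no steady order. The class thus shrank with detected genes over all nuclei and on NeuN plates, and it did not reach 0 in any tertile of either sort. A low share in the deepest tertile was not particular to it. Over all nuclei, Ecel1-only nuclei were 36.4, 43.1 and 17.5% of the tertiles from shallow to deep. Spp1-only nuclei were 24.8, 29.7 and 58.8%, and as shares of a whole these values are not independent.

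**Figure D2:**
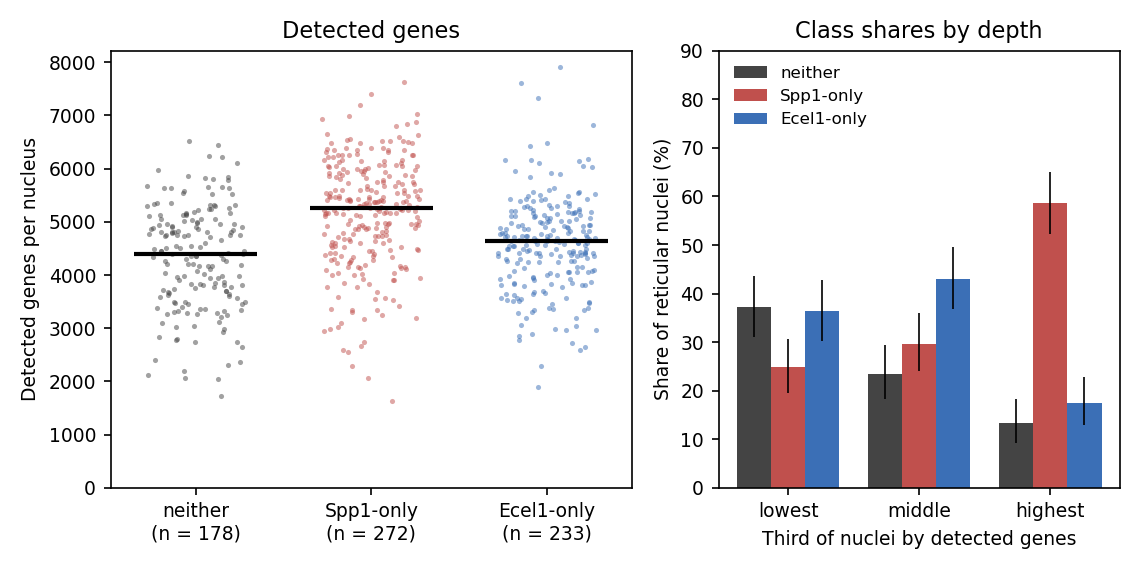
Left, detected genes per nucleus (y axis) in the 3 classes, 1 point per nucleus and a bar at the median (4398, 5264 and 4636). Right, share of each class (y axis, %) in the tertiles of the reticular nuclei by detected genes, with exact 95% binomial intervals. From the shallowest to the deepest tertile, nuclei with neither transcript fall from 37.2% to 13.3% and Ecel1-only nuclei from 36.4% to 17.5%. Spp1-only nuclei reach 58.8% in the deepest tertile.

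Genes other than those of the rule were compared within plates, as the difference of mean log2(TPM + 1) averaged over plates with at least 5 nuclei of both classes. A gene was called when this mean difference was at least 1 and at least 75% of plates shared its sign, a rule of size without a p-value. Of 10902 genes found in at least 10% of the nuclei, 5.29% were called between nuclei with neither transcript and Spp1-only nuclei, 0.459% higher (50 genes) and 4.83% lower in nuclei with neither. Against Ecel1-only nuclei 1.85% were called, 0.385% higher (42 genes) and 1.47% lower (160 genes). The single-marker classes themselves differed at 10.4% of genes, 8.2% higher with Spp1 and 2.18% higher with Ecel1. The split of these directions changed with the scale, the weighting and the calling rule. In the pooled and mean-TPM alternatives that follow, a difference of at least 1 sufficed for a call, without the condition on plates. The median over all genes was -0.21 against Spp1-only nuclei, where 72.3% of genes were negative, and 0.00 to 2 decimals against Ecel1-only nuclei. With nuclei pooled over plates, 0.440% of genes were called higher and 11.5% lower against Spp1-only nuclei, and 0.321% and 2.48% against Ecel1-only nuclei. With pooled nuclei also weighted to the same tertiles of detected genes, 1.09% of genes were called higher and 2.44% lower against Spp1-only nuclei, 0.706% and 1.83% against Ecel1-only nuclei, and 4.82% and 4.14% between the single classes. As log2 ratios of mean TPM the calls were 3.22% higher and 3.11% lower against Spp1-only nuclei, 2.63% and 2.46% against Ecel1-only nuclei, and 4.48% and 3.99% between the single classes.

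The genes furthest below their Spp1-only level included Pcp4l1, Scn4b, Nefh and Syt2. Scn4b (chromosome 9, 45138624 to 45154155, mm10), the beta subunit of resurgent sodium current, was found in 41.6% of nuclei with neither transcript, 88.2% of Spp1-only and 12% of Ecel1-only nuclei. Its plate means of log2(TPM + 1) ran from 0 to 3.72 with a median of 2.66 in the class, from 5.23 to 7.90 (median 6.26) with Spp1 only and from 0 to 2.45 (median 0.73) with Ecel1 only. Every plate of the class lay below every Spp1-only plate and the class overlapped the Ecel1-only plates. The difference was -3.88 (SD 1.26, 15 of 15 plates) against Spp1-only and 1.56 (SD 1.42, 15 of 17 plates) against Ecel1-only nuclei.

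Pcp4l1 (chromosome 1, 171173264 to 171196268), which encodes a small protein related to the calmodulin-binding Pcp4, had the largest difference from Spp1-only nuclei, at -4.26 (SD 1.48, 15 of 15 plates). Its plate means in the class ran from 1.28 to 5.96 (median 4.26), against 5.93 to 9.93 (median 8.66) with Spp1 only and 1.33 to 5.15 (median 3.15) with Ecel1 only. The class met the Spp1-only range at 1 edge and covered the Ecel1-only range. The difference from Ecel1-only nuclei, 1.03, shared its sign on 11 of 17 plates and was not called.

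All 4 neurofilament genes, which build the axon's intermediate filaments, were called lower than in Spp1-only nuclei, beside 4.83% of all genes. Their list median was -2.51 against -0.21 over all genes. Nefh differed by -3.28 (SD 1.71), Nefm by -3.15 (SD 1.86), Nefl by -1.87 (SD 1.69) and Ina by -1.41 (SD 1.38). The class had Nefh plate means of 1.19 to 5.51, all below the lowest Spp1-only plate at 5.57. Against Ecel1-only nuclei 1 of the 4 was called, Nefh at 1.45 higher on 14 of 17 plates, beside 0.385% of all genes called higher. Nefl, at -0.08, was close to the Ecel1-only level.

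Vesicle release genes were split. Syt2, the fast calcium sensor of release, differed by -3.21 (SD 1.26) from Spp1-only nuclei, the vesicle SNARE Vamp1 by -2.67 (SD 2.59), the SNARE clamp Cplx1 by -1.34 and the vesicle glycoprotein Sv2c by -1.47, while the SNARE Vamp2 was 1.09 higher, so 4 of 8 used members were called lower and 1 higher, beside 4.83% and 0.459% of all genes. Vamp1 was the 1 member called against Ecel1-only nuclei, 1.35 higher (SD 2.55, 15 of 17 plates). Its SD over plates was wider than the difference in that comparison.

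The T-type channel genes that carry reticular bursts did not move together. Cacna1h was lower than in Spp1-only nuclei on 15 of 15 plates, with a difference of -3.04 (SD 1.96), and Cacna1i differed by -1.58 (SD 0.99). Neither was called against Ecel1-only nuclei, at 0.46 and 0.21. Cacna1g had the opposite order, -1.16 against Ecel1-only nuclei (SD 1.2, 15 of 17 plates) and 0.65, not called, against Spp1-only nuclei. The SK channel genes Kcnn1 and Kcnn2, whose potassium current follows the T-type calcium influx, were called lower than in Spp1-only nuclei at -1.34 and -1.29, which made 4 of 7 used channel genes lower than with Spp1 (4.83% of all genes) and 1 lower than with Ecel1 (1.47%).

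Among the Kv1 and Kv3 potassium channels, Kcna1 was between the classes, -1.98 against Spp1-only and 1.01 against Ecel1-only nuclei. Kcna2 was called lower than with Spp1 at -1.5, and Kcna6 and Kcnc4 higher at 1.2 and 1.16. Of 5 used metabotropic glutamate receptors, Grm3, Grm7 and Grm8 were called lower than in Spp1-only nuclei (-2.14, -1.72 and -1.71), beside 4.83% of all genes. Grm5 was called lower than in Ecel1-only nuclei (-1.53), beside 1.47% of all genes. Hapln4 and Bcan, matrix genes of perineuronal nets, differed from Spp1-only nuclei by -2.40 and -1.26. All 7 used net genes had positive differences from Ecel1-only nuclei, with a median of 0.38. None was called, where 1.85% of all genes were called either way.

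**Figure D3:**
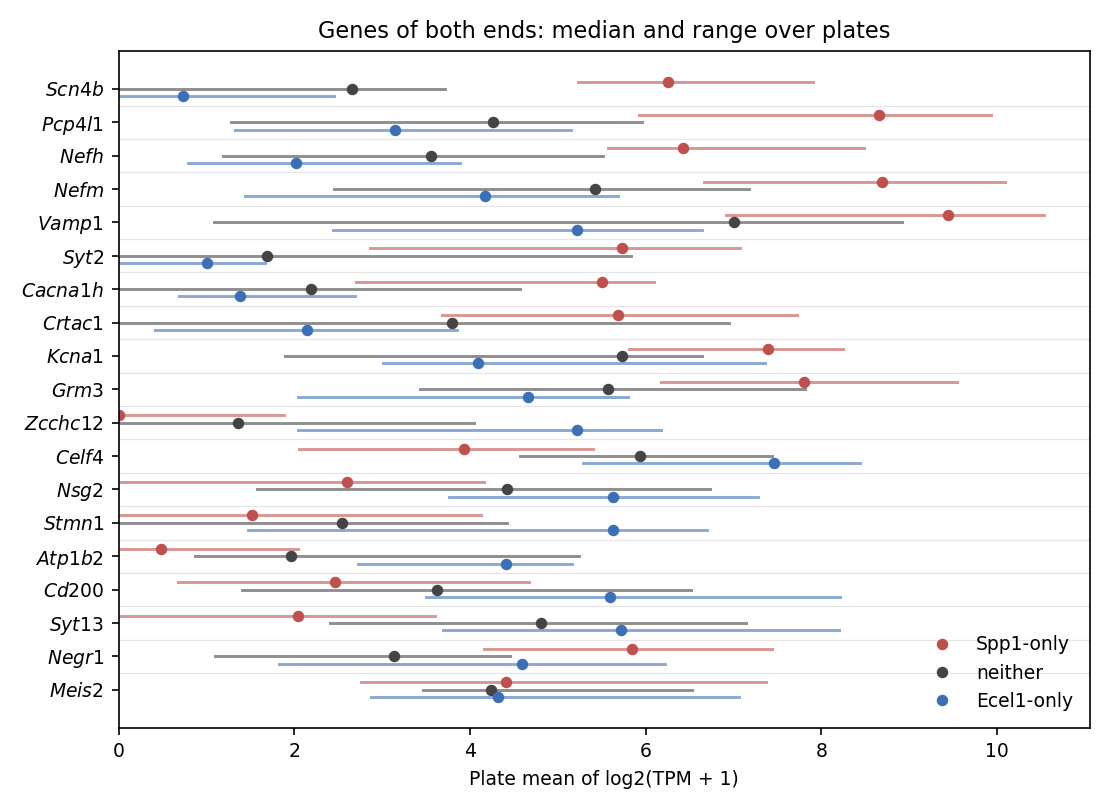
Plate means of log2(TPM + 1) (x axis) for 19 genes in Spp1-only (red), neither (grey) and Ecel1-only (blue) nuclei. Points are medians and lines the lowest to highest of 15 plates with at least 5 nuclei of the class pair; the grey point lies between the other 2 for all genes shown except Negr1 and Meis2, where it is the lowest.

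At the opposite end, genes of the Ecel1-only class were lower in nuclei with neither transcript, though most were above the Spp1-only level. The RNA-binding protein gene Celf4 was found in 88.8% of the class, 76.5% of Spp1-only and 97% of Ecel1-only nuclei. Its plate means ran from 4.57 to 7.44 (median 5.94) in the class, from 2.05 to 5.4 (median 3.93) with Spp1 only and from 5.29 to 8.44 (median 7.46) with Ecel1 only, so the class overlapped both. The difference was 2.15 (SD 1.36, 15 of 15 plates) from Spp1-only and -1.56 (SD 1.32, 16 of 17 plates) from Ecel1-only nuclei.

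Zcchc12 (chromosome X, 36195904 to 36199164), a zinc-finger transcriptional coactivator, was the gene furthest below its Ecel1-only level, at -3.32 (SD 1.34, 17 of 17 plates). It was found in 16.3% of the class against 56.2% of Ecel1-only and 5.51% of Spp1-only nuclei, and its difference of 1.02 from Spp1-only nuclei was not called. Its plate means in the class ran from 0 to 4.05 (median 1.36), against 0 to 1.88 (median 0) with Spp1 only and 2.04 to 6.18 (median 5.22) with Ecel1 only. Like Celf4, other genes were called in both comparisons, above Spp1-only and below Ecel1-only nuclei. They included the sodium pump subunit Atp1b2 (1.68 and -1.86), the immune-inhibitory membrane glycoprotein Cd200 (1.25 and -1.97), the calcium sensor Hpca (1.49 and -1.43) and the GABA-A receptor subunit Gabrb1 (1.27 and -1.31). Syt13, an atypical synaptotagmin, had the largest positive difference from Spp1-only nuclei, at 2.89 (SD 1.65, 15 of 15 plates), and at -1 on 13 of 17 plates just missed the call against Ecel1-only nuclei.

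Neuropeptide transcripts were variable. Sst, somatostatin, was found in 59% of nuclei with neither transcript, 40.8% of Spp1-only and 71.2% of Ecel1-only nuclei, and its differences of 1.67 (SD 3.22) and -1.29 (SD 2.40) were within the spread over plates and not called. Trh, thyrotropin-releasing hormone, was called lower than in Ecel1-only nuclei at -1.72 (SD 1.99), and Npy lower than in Spp1-only nuclei at -1.2 (SD 2). Of 10 used prethalamic and reticular transcription factors, Isl1 (-1.45) and Nr2f2 (-1.02) were called lower than in Spp1-only nuclei and none was called against Ecel1-only nuclei, beside 4.83% of all genes called lower in the first comparison and 1.85% called either way in the second. Meis2, a homeobox factor of the TRN, had differences of -0.04 and -0.19. Of 7 used pan-neuronal genes, Syt1, Stmn2, Syn1 and Rtn1 were called lower than in Ecel1-only nuclei (-1.17, -1.41, -1.01 and -1.11), beside 1.47% of all genes. The list median in that comparison was -1.01, against 0.00 to 2 decimals over all genes. Rbfox3, which encodes NeuN, was the 1 member called lower than in Spp1-only nuclei (-1.69), beside 4.83% of all genes. Of 10 ribosomal protein and 10 respiratory chain genes 0 were called in either comparison, where 5.29% and 1.85% of all genes were called, so a count of 0 does not set lists of this length apart.

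No gene was called higher than in both single classes (0%), and 4 were called lower than in both (0.0367%). The 2 comparisons share the nuclei with neither transcript, and no p-value or tool stands behind the 0. The 4 genes were Negr1, Jkamp, Bcap31 and Dync1li1. Negr1 (chromosome 3, 156561790 to 157316464), a cell adhesion protein of the neuronal surface, was found in 44.4% of the class, 82% of Spp1-only and 64.8% of Ecel1-only nuclei. Its plate means were 1.10 to 4.46 (median 3.13) in the class, 4.16 to 7.44 (median 5.85) with Spp1 only and 1.83 to 6.22 (median 4.59) with Ecel1 only, overlapping both. It differed by -3.00 (SD 1.35, 15 of 15 plates) and -1.52 (SD 1.5, 14 of 17 plates). Jkamp, a membrane protein of the endoplasmic reticulum, differed by -1.48 and -1.17, Bcap31, a chaperone of the same membrane, by -1.15 and -1.06, and Dync1li1, a dynein light intermediate chain, by -1.10 and -1.15. With NeuN plates alone 2 genes were higher and 32 lower than both classes, with unselected plates alone 15 and 51. The sorts shared none of the higher genes and 1 of the lower genes, Negr1 (3.13% and 1.96% of the lists). These calls changed with the setting. Among nuclei at or above the median of detected genes, 54 genes were higher than both classes. By mean TPM 53 were, where a call did not require plates to share a sign. With a pseudocount of 10 TPM 0 genes were called against both. Without 1 unselected plate (TRNp8) 9 genes were lower than both, Negr1 alone of the 4 among them, and without 1 NeuN plate (TRNpD) 14 were.

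The nuclei were then placed on the line from Ecel1-only to Spp1-only with genes chosen on other plates. The 20 called genes with the largest difference at each end were taken from the plates of 1 sort, without any nucleus of the class and without the rule genes, and read on the plates of the other sort. Each nucleus scored the mean log2(TPM + 1) of the Spp1-end genes minus that of the Ecel1-end genes, and a position of 0 marks the Ecel1-only and 1 the Spp1-only median. On NeuN plates the class had a median score of 0.99 between -2.17 and 4.15, a position of 0.50, and plate positions from 0.20 to 0.66 (median 0.46, SD 0.17, 8 plates). On unselected plates its median was -0.98 between -3.91 and 3.93, a position of 0.37, with plates from -0.15 to 0.59 (median 0.20, SD 0.27, 7 plates). The positions of the sorts differed by less than the spread over plates. The class lay inside the span on 8 of 8 and 6 of 7 plates.

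Position did not follow detected genes on NeuN plates, where it was 0.52, 0.50 and 0.54 in the tertiles from shallow to deep. On unselected plates it was 0.32, 0.40 and 0.49. With classes weighted to the same tertiles it was 0.47 and 0.39. Among single nuclei, 87 of 110 (79.1%) on NeuN plates and 58 of 68 (85.3%) on unselected plates scored between the medians of the single classes. As these limits are medians, much of each single class also lies between them. The shares on NeuN and unselected plates were 49.3 and 49.2% of Spp1-only and 50 and 49.4% of Ecel1-only nuclei. Scores in the class were more spread than in either single class, with SDs of 2.64 and 2.55 against 1.81 and 1.85 (Spp1-only) and 2.2 and 2.24 (Ecel1-only). They reached both ends: on NeuN plates 14 nuclei scored at or below the Ecel1-only median and 9 at or above the Spp1-only median. The 38 nuclei with both transcripts had a median of 1.95, between the same limits, and 92.1% of them scored between these.

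**Figure D4:**
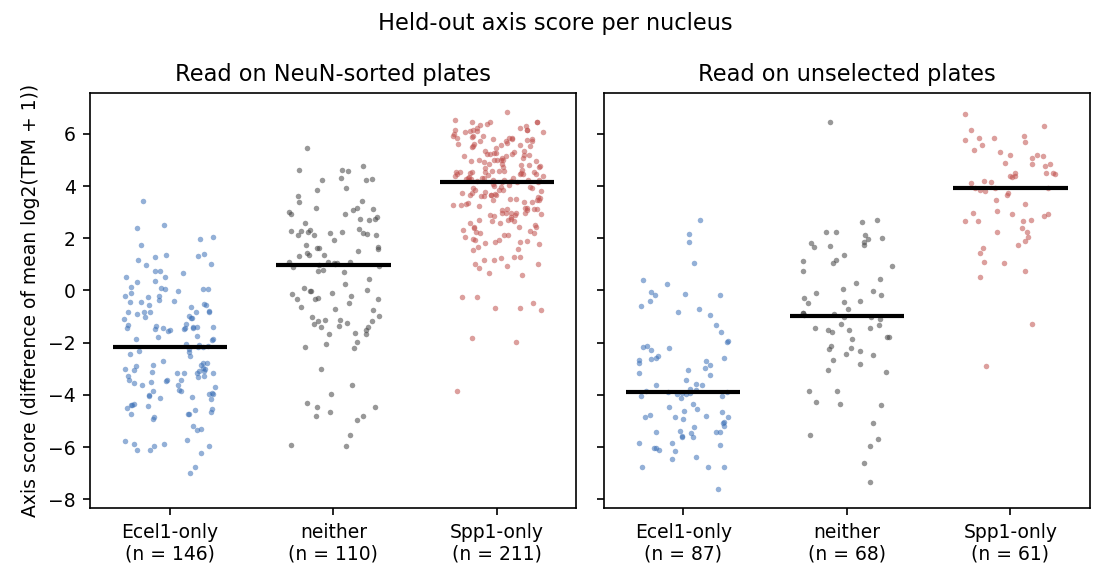
Axis score per nucleus (y axis, difference of mean log2(TPM + 1) between the genes of both ends) in the 3 classes, with a bar at the median. Genes were chosen on the plates of the other sort; nuclei with neither transcript have medians of 0.99 (NeuN plates) and -0.98 (unselected plates), between the single classes.

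Both ends of the axis were also lowered in the class relative to the class that carries them. On NeuN plates the median of the Spp1-end genes was 4.52 in the class, 7.05 with Spp1 only and 3.56 with Ecel1 only, and that of the Ecel1-end genes 4.05, 2.83 and 5.98. Of 20 held-out Spp1-end genes, 20 on NeuN and 19 on unselected plates had the class mean between those of the single classes, at median positions of 0.28 and 0.25. Of the 20 Ecel1-end genes, 17 and 20 did, at 0.60 and 0.43. Spp1-end genes in the class were thus nearer the Ecel1-only level in both sorts, and Ecel1-end genes nearer the Spp1-only level on NeuN plates and slightly nearer the Ecel1-only level on unselected plates. In the class, rho between the Spp1-end mean and detected genes was 0.42 on NeuN and 0.72 on unselected plates, and for the Ecel1-end mean 0.29 and 0.16. The single classes had positive values too. In the same order these were 0.44, 0.60, 0.24 and 0.19 in Spp1-only nuclei and 0.23, 0.46, 0.29 and 0.17 in Ecel1-only nuclei.

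Genes of both ends were present in the same nuclei. The gene choice of both sorts shared 10 Spp1-end genes (among them Scn4b, Nefh, Nefm, Vamp1, Coro6, Pcp4l1, Cacna1h and Syt2) and 11 Ecel1-end genes (among them Zcchc12, Nsg2, Celf4, Stmn1, Atp1b2 and Cpne6). A nucleus with neither Spp1 nor Ecel1 had a median of 6 of the 10 and 5 of the 11, against 9 and 3 with Spp1 only and 4 and 8 with Ecel1 only. At least 5 genes of each end were found in 63 nuclei of the class (35.4%, 28.4 to 42.9%), against 27.9% of Spp1-only, 39.1% of Ecel1-only and 71.1% of the 38 nuclei with both. The remaining nuclei of the class were split: 55 (30.9%) had at least 5 of the Spp1 end alone, 49 (27.5%) of the Ecel1 end alone, and 11 (6.18%, 3.13 to 10.8%) under 5 of either. The last share was 0.735% in Spp1-only and 3.86% in Ecel1-only nuclei. Within the class the means of the 2 ends had a rho of -0.34 on NeuN plates (110 nuclei) and -0.25 on unselected plates (68 nuclei), which share library depth, and in Spp1-only and Ecel1-only nuclei of NeuN plates it was -0.31 and -0.43.

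**Figure D5:**
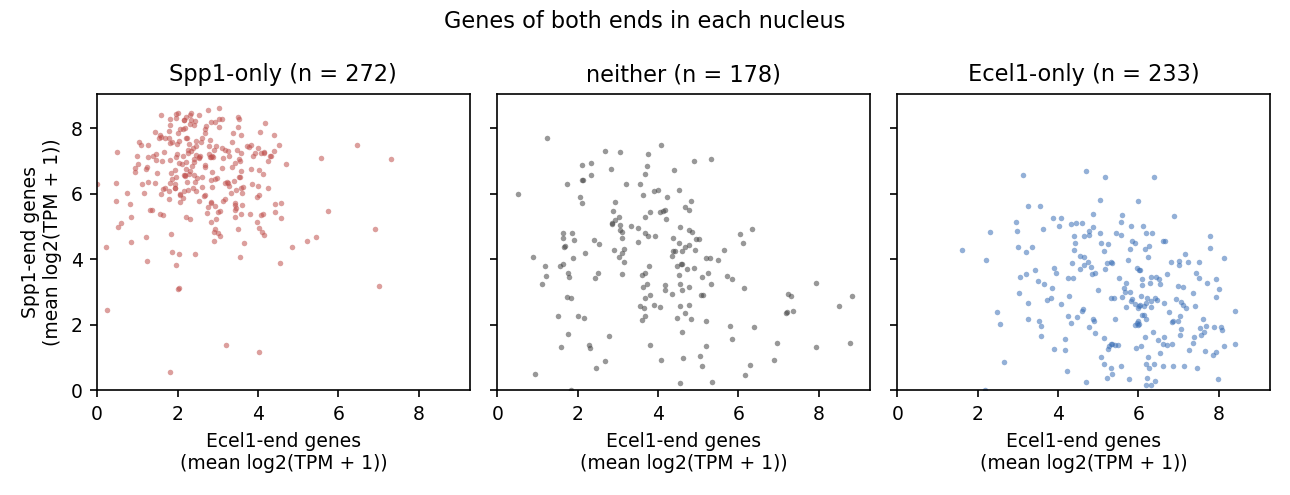
Mean log2(TPM + 1) of held-out Spp1-end genes (y axis) against Ecel1-end genes (x axis), 1 point per nucleus, both sorts together. Spp1-only nuclei sit high and left, Ecel1-only nuclei low and right, and nuclei with neither transcript extend over the space between and into both.

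Nuclei with neither transcript did not form a neighbourhood of their own. In 20 principal components of the 2000 most variable genes, centred within plates and without the rule genes, their 15 nearest neighbours were 32% nuclei of the same class, 32.5% Spp1-only and 29.6% Ecel1-only, where the shares of all nuclei were 24.7, 37.7 and 32.3%. Spp1-only nuclei had 72.5% and Ecel1-only nuclei 57.5% neighbours of their own class. In 25 nuclei of the class 8 or more of the 15 neighbours had neither transcript. With detected genes regressed out the class found 28.8% of its own.

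Markers of other cell types were read in the same nuclei. The 8 oligodendrocyte markers summed to a mean of 2496 TPM in the class against 643.7 TPM with Spp1 only and 965.6 TPM with Ecel1 only, while the medians were 36.8, 66.5 and 30.5 TPM. The plate means of this sum ran from 75.1 to 23527 TPM in the class and from 3.59 to 3325 TPM in Ecel1-only nuclei. In Spp1-only nuclei they began at 4.22 TPM and their highest was below that of Ecel1-only nuclei, and none of the 8 markers was at 0 in the class. Single nuclei carried the difference: 11 nuclei of the class had 5000 TPM or more of glial and vessel markers (6.18%, 3.13 to 10.8%), against 9 nuclei (3.31%) of the Spp1-only and 9 (3.86%) of the Ecel1-only class. Without such nuclei the class was 24.2% of the rest, its positions were 0.53 and 0.40, and 4.22% of genes were called against Spp1-only (0.614% higher, 3.60% lower) and 2.16% against Ecel1-only nuclei (0.972% higher, 1.18% lower), with 0 higher and 4 lower than both. Of the 7 striatal projection neuron markers at least 1 was found in 9.55% of the class, 5.88% of Spp1-only and 18% of Ecel1-only nuclei, and Tac1 was at 0. Thalamic glutamatergic markers were found in 39.9%, 37.1% and 49.4%, with medians of 0 TPM in all 3 classes.

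The same rule was applied to Patch-seq libraries, made from TRN neurons whose content was drawn into a recording pipette. Of 95 libraries 78 passed, and 16 had neither transcript (20.5%, 12.2 to 31.2%), beside 29 with Spp1 only, 20 with Ecel1 only and 13 with both (16.7%). These 16 had a median of 5548 detected genes (highest 11823) against 7131 and 7813 in the single classes. On the 21 shared genes their position was 0.46, and 13 of 16 scored between the medians of the single classes and 3 at or below the Ecel1-only median. Libraries of the single classes lay between these limits too, since each limit is a class median. Mean log2(TPM + 1) of Scn4b was 3.18 in them, 7.03 with Spp1 only and 2.40 with Ecel1 only, and that of Zcchc12 was 3.3, 0.51 and 5.29. Negr1 was the lowest in them here too, found in 37.5% of libraries against 86.2% and 80%, at 1.55, 5.37 and 3.84. Jkamp (4.02) and Bcap31 (2.33) were also below both single classes and Dync1li1 (4.69) was above them. The labels name no animal for these libraries either, so these values are a description. On plates of adjacent tissue, 17 of 51 nuclei that met the rule had neither transcript (33.3%, 20.8 to 47.9%), with a median score of -0.91 on the shared genes between -2.71 with Ecel1 only and 5.55 with Spp1 only.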

How the data were processed

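Values were read for 1447 TRN nuclei, 51 rule-passing nuclei of adjacent tissue and 95 Patch-seq libraries. Of the TRN nuclei 721 passed the class rule (505 NeuN, 216 unselected): 178 with neither transcript, 272 with Spp1 only, 233 with Ecel1 only and 38 with both. Per the submitters' processing notes, RSEM, Bowtie, TopHat2 2.0.10 and Seurat 2.2.0 were used with build mm10, with no role or order given. The authors deposited the Patch-seq table as TPM. The deposited TRN values are natural log (ln) values, ln(1 + f x TPM) with f particular to a nucleus. This was read from the values: after exponentiation and scaling to the TPM total, each of 236907 entries below 2 TPM fell within 0.1 steps of a multiple of 0.01. The design had assumed TPM in that table, and the recovered TPM were used. TPM keep no read counts, so detected genes stand in for depth.

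Members and gene lists were chosen with earlier results of these data known. Table columns were assigned to samples through the labels, and no doublet caller was run. Named genes were the 12 largest called differences each way in each pair of classes, up to 10 each way called against both, shared axis genes, and members of the lists. Lists without a value in the Results include ionotropic glutamate receptors, immediate early genes and pallidal markers. Of 5 used immediate early genes, 1 was called lower than with Spp1 (4.83% of all genes) and 0 against Ecel1-only nuclei (1.85%). In Spp1-only nuclei 2 of the 5 were called higher than in Ecel1-only nuclei (8.2% of all genes). Of 2 used pallidal markers 0 were called in any comparison, where 1.85 to 10.4% of all genes were called. Of 9 used ionotropic glutamate receptor genes, 4 were called higher and 1 lower in Spp1-only than in Ecel1-only nuclei, beside 10.4% of all genes. In nuclei with neither transcript 2 of the 9 were called lower than with Spp1 (4.83% of all genes). Against Ecel1-only nuclei 0 were called (1.85% of all genes). Coordinates are from GENCODE M21 (GRCm38, the assembly of mm10). A few genes are not reported here. Alternatives covered the rule's thresholds, sort, plates, pseudocount, gene filter and scale. Software was scikit-learn 1.9.0, scipy 1.17.1, pandas 2.3.3 and numpy 2.4.6 under Python 3.11.15.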

Additional observations from a re-analysis of the deposited data

How the results depend on the processing

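No paired analysis was possible because replicate numbers were given in accession order and no label ties nuclei across groups. Of the recalculated values of 72 named differences, 96.3% kept their direction and stayed called, 36 were no longer called and 1 reversed: Ldha against Ecel1-only nuclei was 0.25 among nuclei at or above the median of detected genes. Under every alternative run, the share of the class and both axis positions moved by less than their spread. So did the share of own neighbours. The Patch-seq share has no spread over plates and stayed inside its exact binomial interval of 12.2 to 31.2%. The spread over plates was wide, with an SD of 12.4 for the share in % and 0.27 for the position on unselected plates. Among nuclei at or above the median of detected genes the share fell from 24.7% to 16.9%. The position on unselected plates rose there from 0.37 to 0.58, nearer the Spp1-only than the Ecel1-only median. The position on NeuN plates could not be computed among deep nuclei, because no unselected plate then held 5 nuclei of both single classes.

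The difference of detected genes from Ecel1-only nuclei turned to 5 among nuclei at or above the median and to 51.6 as the mean over plates, and that from Spp1-only nuclei was -360 among such nuclei. Leaving out 1 plate at a time gave shares of 23.9 to 26.1%, differences of -895.5 to -818 and -274 to -156.5 genes, and positions of 0.47 to 0.52 and 0.35 to 0.39. It gave called genes of 5.22 to 6.37%, 1.85 to 2.32% and 10.4 to 11.5% in the order below, and 0.0366 to 0.129% against both classes, none of them higher.

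The share of genes called depended on the settings. Alternatives with nuclei pooled or by mean TPM called genes on size alone, without the condition on plates. In the order against Spp1-only, against Ecel1-only, between the single classes, and against both in 1 direction, where the report has 5.29, 1.85, 10.4 and 0.0367%, it was 7.81, 13.5, 16.2 and 1.53% among deep nuclei (5 or 6 plates) and 0.926, 0.294, 2.91 and 0% with a pseudocount of 10 TPM. It was 11.9, 2.80 and 0.349% (the first, the second and the last) with nuclei pooled, 8.42, 4.62 and 0.633% on unselected plates, and 3.83 and 0.307% (the second and the last) on NeuN plates. The second and the last were 5.09 and 1.29% by mean TPM and 2.88 and 0.147% with Pvalb and Six3 both required. The last was 0.0642% with Spp1 and Ecel1 read as absent under 10 TPM, 0.0640% with Gad1 and Gad2 at 500 TPM, and 0.0642% with nuclei pooled and weighted to equal tertiles of detected genes. Calls higher than both classes, 0 in the report, were 54 among deep nuclei, 53 by mean TPM, 15 on unselected plates, 2 on NeuN plates, 2 with pooled nuclei in equal tertiles and 1 with both Pvalb and Six3. The cause of these shifts was not tested. Alternatives without glia-rich nuclei, without 4 plates, with equal tertiles for position and with the mean over plates were chosen after seeing the data.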
